A study of Mus musculus with 6 samples.

Results

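Ba/F3 cells that carried the PAX5-KIDINS220 fusion under a doxycycline-controlled promoter were profiled on 6 microarrays, and the genes described here are the nuclear genes for the subunits of the mitochondrial oxidative phosphorylation complexes. Members were chosen by symbol: every gene on the array whose symbol starts with Nduf (but not Ndufaf), Uqcr, Cox4i, Cox5, Cox6, Cox7, Cox8 or Atp5, with Sdha, Sdhb, Sdhc, Sdhd and Cyc1. This gave 83 of the 18193 named genes, of which 36 were filed under complex I, 4 under complex II, 9 under complex III, 17 under complex IV and 17 under complex V. A symbol that starts this way does not always mark a subunit of that complex: Ndufa4 is now known as a complex IV protein, and Cox7a2l as a factor that joins complexes III and IV.

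Ba/F3 is a mouse haematopoietic line of BALB/c background that needs interleukin-3, supplied here by medium conditioned by WEHI-3 cells. The 3 Dox(+) samples received 500 ng/mL doxycycline and the 3 Dox(-) samples none, and RNA was taken at 24 h to learn which pathways the fusion affects. Cells of both groups had been transduced with the Retro-X Tet-On Advanced system, and the labels do not say whether they were a clone or a mixed population. PAX5 directs B cell identity as a DNA-binding factor, and KIDINS220 is a transmembrane scaffold that works with growth factor and antigen receptors. Doxycycline is itself known to slow protein synthesis on mitochondrial ribosomes. No doxycycline-treated cells without the construct were analysed here, so the drug and the fusion cannot be told apart in any difference below. The labels do not say that samples of a group came from separate cultures, so p-values here reflect how these arrays vary, and that variation may be technical.

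The respiratory chain passes electrons from NADH (complex I) and succinate (complex II) through ubiquinone to complex III, then through cytochrome c to complex IV, which reduces oxygen. Complexes I, III and IV pump protons across the inner mitochondrial membrane, and complex V, the ATP synthase, uses their return to make ATP. Most subunits are made from nuclear genes and imported, a few core ones are made inside the mitochondrion, and the complexes are assembled from both. Several complex IV subunits, unlike most others, have tissue-specific versions used in heart and skeletal muscle, lung or testis.

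The array codes in the sample titles begin with EA15 for 1 Dox(+) and 1 Dox(-) array and with EA20 for 2 Dox(+) and 2 Dox(-) arrays. The labels do not call these codes a batch; they are called array sets here. Where 3 signals are given for a group, the first is its EA15 array and the others are its EA20 arrays. In EA20 the codes of the Dox(+) arrays precede those of the Dox(-) arrays, so code order and treatment cannot be told apart there. The ratio of 3' to 5' Gapdh signal, a measure of RNA integrity, was 0.656 to 0.688 on the Dox(+) arrays and 0.637 to 0.684 on the Dox(-) arrays. Bacterial hybridization controls had a geometric mean signal of 3990 to 4442 on the EA20 arrays and of 2662 to 2746 on the EA15 arrays. Of 8 markers of this kind of line, 7 were above the 40th percentile of mean signal over genes (a signal of 52.4, the dim limit below), and Kit was not. Their summed signal was 36420 to 87706 on the Dox(+) arrays and 35168 to 78822 on the Dox(-) arrays, and 77839 to 87706 in EA20 against 35168 to 36420 in EA15. Pax5 read 51.6, 133 and 48.1 on the Dox(+) arrays, against 23.9, 92.0 and 81.5 on the Dox(-) arrays. Whether the Pax5 and Kidins220 probe sets read the construct was not tested. In such bulk RNA, fewer cells of a kind and less RNA per cell cannot be told apart.

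No oxidative phosphorylation gene passed the test between Dox(+) and Dox(-). Each gene was tested on log2(signal + 16) in a limma fit over all genes with doxycycline and array set as terms, and a gene was called at a Benjamini-Hochberg adjusted p under 0.05. Of the 83 members, 0 were called higher and 0 lower. Over all genes 36 were called (0.198%), 27 of them higher (0.148%) and 9 lower (0.0495%), so a list of this length would hold no call at the background share. The lowest adjusted p among the members was 0.244. At an unadjusted p under 0.05 there were 4 members, 2 higher and 2 lower, where the background was 2015 genes or 11.1%. The 4 EA20 arrays alone gave 0 member calls, with a background of 75 genes (0.412%). Without the array-set term 0 members were called, and 0 of all genes (0%), while at an unadjusted p under 0.05 there were 0 members against 470 genes (2.58%).

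Median log2 differences, Dox(+) minus Dox(-), were -0.012 for complex I, -0.019 for complex II, -0.011 for complex III, 0.016 for complex IV and -0.0062 for complex V. The median was -0.0063 over all members and 0.0037 over all genes. Members lay on both sides of 0, with 36 positive and 47 negative, and 46 had the same sign in both array sets. Over all 18193 genes 9224 were positive and 8969 negative, and 9793 had the same sign in both sets, a similar share. The spread was small: among the 77 members above the dim limit the median size of the log2 difference was 0.038, with 95% of them under 0.16, where all 10916 genes above that limit had 0.11 and 0.47. Their median standard error was 0.066, against 0.099 for those genes. The 2 sets differ in brightness: mean signals were 3239 to 7253 in complex II, 3792.5 to 20036 in complex III and 4114 to 17936 in complex V. The 10916 genes began at 52.4. The part of signal level in the smaller spread of the members was not tested. The 95% interval of the difference stayed within 1.5-fold either way for 75 of the 77 members above the dim limit, and within 1.2-fold for 67. No member below the limit had so narrow an interval. Of the 10916 genes above the limit 7958 and 3053 had such intervals, a smaller share in both cases. Over all 18193 genes, dim ones included, the counts were 8036 and 3053. The part of signal level in this gap was not tested either. The 6 members below the dim limit, namely Ndufa4l2, Ndufb4, Cox6b2, Cox7a1, Cox7b2 and Cox8b, had wider intervals, and their differences cannot be bounded as closely.

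**Figure D1:**
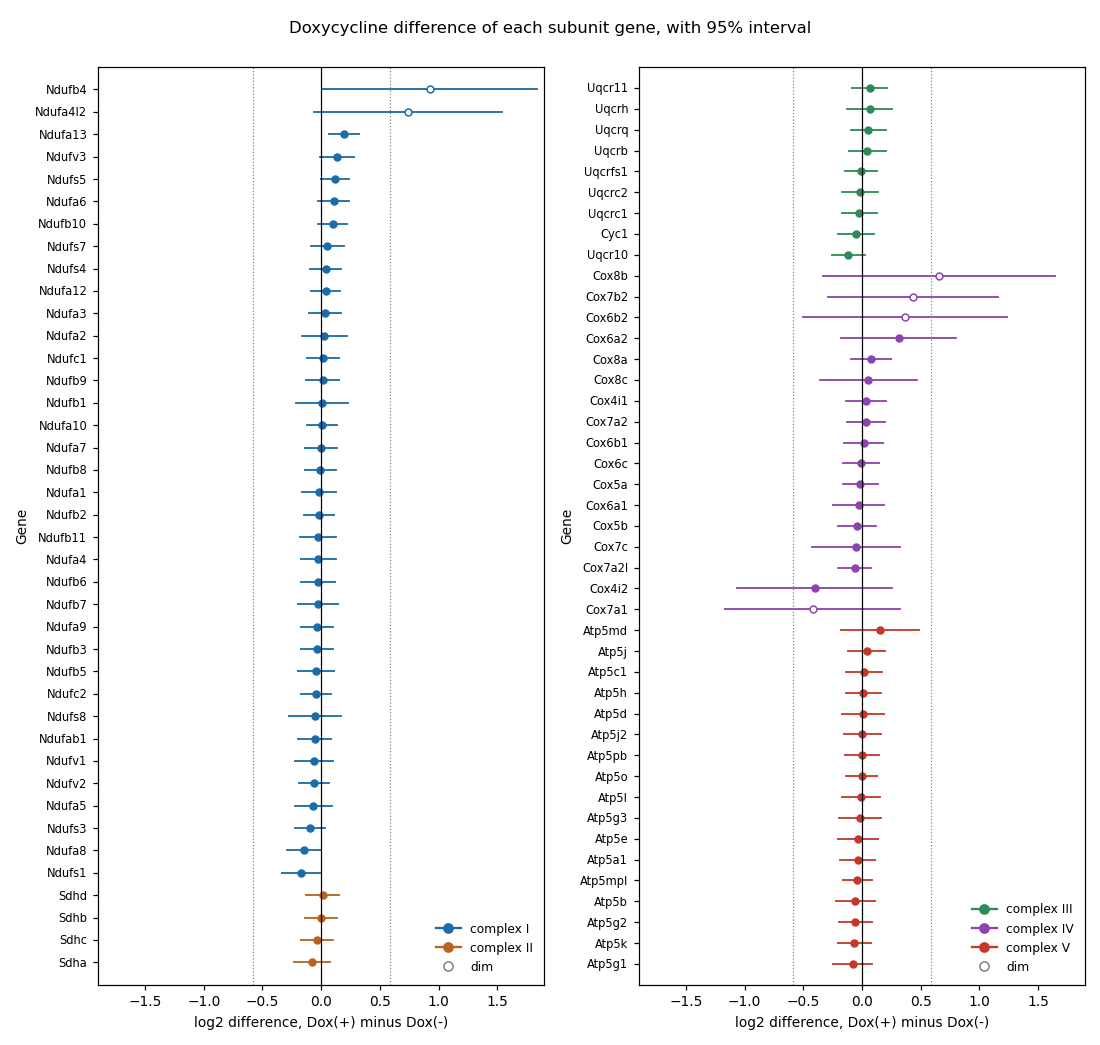
Log2 difference between Dox(+) and Dox(-) for each of the 83 members, one row per gene, grouped by complex; points are the estimates of the fit with array set as a term, bars are 95% intervals and dotted lines mark 1.5-fold. Intervals of 75 members lie inside the dotted lines, and the wide ones belong to dim genes and to the tissue-restricted forms of complex IV.

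Ndufa13 had the smallest p of all members. It encodes a complex I accessory subunit, also called GRIM-19, that is needed for complex I assembly and is known to bind STAT3. Its probe set read 6708, 7250.2 and 7484 on the Dox(+) arrays, against 5790, 6606 and 6348 on the Dox(-) arrays. Every Dox(+) array was above every Dox(-) array. Such a separation was seen for Ndufa13 and Ndufa4l2 among the members, and in the other direction for Cox4i2; over all genes it held for 699 upward (3.84%) and 557 downward (3.06%). The log2 difference was 0.19 (SE 0.056), or 1.14-fold with a 95% interval of 1.05 to 1.25, and the adjusted p was 0.244. It was 0.21 in EA15 (1 array per group, no test) and 0.19 in EA20 (adjusted p 0.301).

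Of the complex I core subunits, which hold the iron-sulfur clusters and the flavin that carry electrons from NADH, 6 are in the nuclear genome list here. Ndufs1, the largest of them, read 4027, 2349 and 2267 on the Dox(+) arrays, against 3984, 2707 and 2843 on the Dox(-) arrays. The groups overlapped because both EA15 arrays were high, while in EA20 both Dox(+) arrays were below both Dox(-) arrays. Its log2 difference was -0.17 (SE 0.071, adjusted p 0.414), being 0.015 in EA15 and -0.26 in EA20 (adjusted p 0.155). Ndufs3, a subunit of the arm that projects into the matrix, read 5054, 3123 and 3135 on the Dox(+) arrays, against 5143, 3475 and 3374 on the Dox(-) arrays, a log2 difference of -0.095 (adjusted p 0.587). The other 4, namely Ndufs7, Ndufs8, Ndufv1 and Ndufv2, had log2 differences of 0.053, -0.054, -0.060 and -0.063. No core subunit passed the test.

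The 28 accessory subunits of complex I, which surround the core and are needed for its assembly and stability, were 14 positive and 14 negative. Ndufa8, on the intermembrane face, read 5509, 3888 and 4010 on the Dox(+) arrays, against 5903, 4713 and 4183 on the Dox(-) arrays. Each Dox(+) array was below the Dox(-) arrays of its own set, but the groups overlapped across sets. Its log2 difference was -0.15 (SE 0.064, adjusted p 0.445). Ndufs5, another subunit of that face, read 4019, 3791 and 3680 on the Dox(+) arrays, against 3681, 3470 and 3439 on the Dox(-) arrays, and differed by 0.12 (SE 0.053, adjusted p 0.465). The highest Dox(-) value of Ndufs5, in EA15, and its lowest Dox(+) value, in EA20, nearly coincided. Ndufb4, a membrane-arm subunit, had 1 probe set that names it alone, and this was dim: 32.7, 49.9 and 17.7 on the Dox(+) arrays, against 29.7, 4.25 and 1.15 on the Dox(-) arrays. Its log2 difference of 0.92 (SE 0.40, adjusted p 0.441) rests on signals near the floor of the array.

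Of the pair Ndufa4 and Ndufa4l2, the first is the widely used complex IV protein and the second a paralogue induced by hypoxia. Ndufa4 read 10184, 9021 and 9174 on the Dox(+) arrays, against 10356, 9822 and 8730.3 on the Dox(-) arrays, with overlapping groups and a log2 difference of -0.025 (95% interval -0.17 to 0.12). Ndufa4l2 was below the dim limit, at 22.4, 60.5 and 24.8 on the Dox(+) arrays, against 11.6, 14.9 and 14.2 on the Dox(-) arrays. The groups did not overlap, but the log2 difference of 0.74 had an SE of 0.35 and an adjusted p of 0.492.

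All 4 complex II genes were bright, and their 95% intervals lay within 1.2-fold. Sdha, the flavoprotein that oxidizes succinate, read 5957, 4694 and 5446 on the Dox(+) arrays, against 6454, 5271 and 5304 on the Dox(-) arrays, and differed by -0.081 (95% interval -0.24 to 0.073). Sdhb, the iron-sulfur subunit, differed by -0.0012 (-0.14 to 0.14). The membrane anchors Sdhc and Sdhd differed by -0.036 (-0.17 to 0.098) and 0.012 (-0.13 to 0.15). In Sdhd the 2 sets did not point the same way, at 0.15 in EA15 and -0.057 in EA20.

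Complex III members also kept within 1.2-fold, all 9 of them. Cyc1, the cytochrome c1 subunit that hands electrons to cytochrome c, read 8797, 2754 and 2876 on the Dox(+) arrays, against 8101, 3147 and 3021 on the Dox(-) arrays. Its large spread lay between array sets and not between treatments, and the Dox(+) minus Dox(-) log2 difference was -0.048 (95% interval -0.20 to 0.11). Uqcr10, a small subunit, read 5172, 2962 and 2859 on the Dox(+) arrays, against 5195, 3383 and 3184 on the Dox(-) arrays, a log2 difference of -0.12 (adjusted p 0.535). Uqcr11, Uqcrh (the hinge protein next to cytochrome c1) and Uqcrq (a ubiquinone-binding subunit) differed by 0.065, 0.064 and 0.054. Uqcrc1 and Uqcrc2, the core proteins, differed by -0.022 and -0.018, and the Rieske protein gene Uqcrfs1 by -0.011.

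The 9 widely expressed complex IV subunits differed by -0.049 to 0.078. Cox4i1, a regulatory subunit that binds ATP, read 18488, 17808 and 19350 on the Dox(+) arrays, against 18549, 18848 and 16951 on the Dox(-) arrays. These groups overlapped throughout, and the log2 difference was 0.035 (95% interval -0.14 to 0.21). Cox6a1, Cox7a2 and Cox8a, the versions used in most tissues, differed by -0.028, 0.033 and 0.078. Cox7c was read by a probe set of modest signal, 165 to 302 on the Dox(+) arrays and 187 to 275 on the Dox(-) arrays, and differed by -0.049 (SE 0.17).

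Of the 7 tissue-restricted forms, 4 were below the dim limit: Cox6b2 and Cox7b2, known from testis, and Cox7a1 and Cox8b, known from heart and skeletal muscle. The other 3 were low. Cox4i2, a lung form that hypoxia induces, read 77.9, 93.3 and 51.3 on the Dox(+) arrays, against 110, 96.2 and 96.6 on the Dox(-) arrays. All Dox(+) values were below all Dox(-) values, and the log2 difference of -0.40 had an SE of 0.29 (adjusted p 0.679). Cox6a2, the heart and skeletal muscle form, read 305, 95.4 and 94.4 on the Dox(+) arrays, against 245, 71.6 and 74.3 on the Dox(-) arrays. Within each set the Dox(+) arrays were above the Dox(-) arrays, by 0.30 in EA15 and 0.32 in EA20 on the log2 scale, but the adjusted p was 0.658. Cox8c, known from testis, read 240 to 266 in EA20 and 233 in EA15 with doxycycline, against 204 to 302 in EA20 and 214 in EA15 without it.

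The 17 complex V genes differed by -0.081 to 0.15, and the intervals of 16 lay within 1.2-fold. The exception was Atp5md, whose small membrane protein, DAPIT, links ATP synthase dimers. It read 4542, 3321 and 5229 on the Dox(+) arrays, against 3552, 4016 and 4024 on the Dox(-) arrays. The Dox(+) arrays took both the lowest and the highest of its 6 values, and the log2 difference was 0.15 (SE 0.15, 95% interval -0.18 to 0.48). Atp5a1 and Atp5b, the subunits that form the catalytic head, differed by -0.037 and -0.057, and Atp5c1, the shaft that turns inside it, by 0.019. Atp5g1, Atp5g2 and Atp5g3 encode the same mature protein of the proton-driven ring from separate genes, and differed by -0.081, -0.059 and -0.015. Atp5j of the peripheral stalk and Atp5k of the membrane part differed by 0.040 and -0.065.

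**Figure D2:**
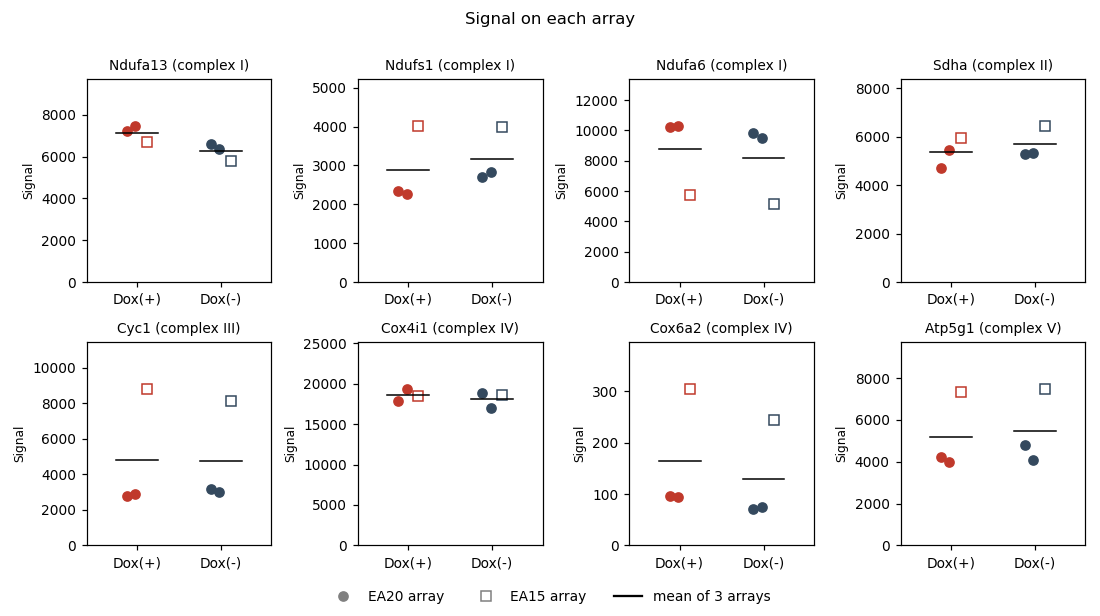
Signal on each of the 6 arrays for 8 members, 1 panel per gene, with Dox(+) left of Dox(-); filled circles are EA20 arrays, open squares are EA15 arrays and the bar is the mean of 3 arrays. In Ndufa13 the 3 Dox(+) arrays lie above the 3 Dox(-) arrays, whereas in Cyc1, Cox6a2 and Atp5g1 the EA15 squares stand far above the EA20 circles in both groups, and in Ndufa6 far below.

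Genes that build, supply or regulate the complexes likewise held no call, in 6 lists. Of 47 assembly factors 46 were measured, 0 were called and the median log2 difference was 0.010. Among them Ndufaf3, a complex I assembly factor, read 1175, 1385 and 1318 on the Dox(+) arrays, against 1107, 1018 and 978 on the Dox(-) arrays. The groups did not overlap, with a log2 difference of 0.32 (SE 0.085, adjusted p 0.215) that was 0.085 in EA15 and 0.43 in EA20. Sco2, a copper chaperone for complex IV, read 464, 355 and 356 on the Dox(+) arrays, against 621, 541 and 457 on the Dox(-) arrays. Its groups overlapped by a single EA15 array, and its log2 difference was -0.45 (SE 0.11, adjusted p 0.174). Ndufaf1 and Ndufaf6 differed by 0.17 and -0.33.

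Of the 13 subunits made inside the mitochondrion, 1 was measured as a named gene. This was ND5, a proton-pumping subunit of complex I, at 10580, 7905 and 8652 on the Dox(+) arrays, against 8894, 6887 and 8029 on the Dox(-) arrays. The groups overlapped, and the log2 difference was 0.19 (SE 0.076, adjusted p 0.413). Without the Dox(-) array of replicate 3 it was 0.26, still not called.

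Coenzyme Q synthesis and mobile carriers had 16 of 17 genes measured, 0 called and a median of -0.060, with 4 positive and 12 negative. Over all genes 9224 were positive and 8969 negative. Of the 16 genes only 9 had the same sign in both array sets, so nothing is read from the split. Coq2, which joins the ring of ubiquinone to its tail, read 2057, 1222 and 1222 on the Dox(+) arrays, against 2260, 1631 and 1593 on the Dox(-) arrays. In each set the Dox(+) values lay below the Dox(-) values. The log2 difference was -0.13 in EA15 and -0.39 in EA20, and the joint value of -0.31 (SE 0.070) had an adjusted p of 0.154. Pdss2, Coq10b and Coq7 of the same pathway differed by 0.24, 0.15 and -0.19.

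Regulators of mitochondrial biogenesis had 21 of 22 genes measured, 0 called and a median of -0.056. Twnk, the helicase that unwinds mitochondrial DNA, read 531, 507 and 535 on the Dox(+) arrays, against 801, 692 and 616 on the Dox(-) arrays. These groups did not overlap, with a log2 difference of -0.40 (SE 0.098, adjusted p 0.174). Tfam, which packages mitochondrial DNA and starts its transcription, differed by -0.12, Ppargc1b, a coactivator of respiratory genes, by 0.15, and Mterf2 by 0.21. The TCA cycle list, which also takes in genes of the pyruvate dehydrogenase complex, had 18 of 20 measured, 0 called and a median of -0.052. Its values included -0.11 for Suclg2 and 0.091 for Cs (citrate synthase). The pyruvate dehydrogenase genes Pdhx and Dlat differed by -0.33 and 0.059. Carriers and inner membrane proteins had 12 of 14 measured, 0 called and a median of -0.011, with -0.10 for the phosphate carrier Slc25a3, -0.048 for the ADP/ATP carrier Slc25a4, 0.10 for the GTPase Opa1, which fuses mitochondrial inner membranes, and 0.10 for Atpif1, the inhibitor of ATP synthase.

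The members differed more between the array sets than between treatments, with a median size of 0.30 on the log2 scale between sets, where it was 0.038 between treatments (77 members above the dim limit). The 10916 genes above that limit had 0.43 between sets and 0.11 between treatments, so the members' set differences were not larger in size than the background; they leaned to the lower side. In the array-set term of the same limma fit, 44 members were lower in EA20 than in EA15, 5 were higher and 34 were not called at an adjusted p under 0.05. Over all genes 2959 were lower (16.3%) and 3148 higher (17.3%); among genes above the dim limit 2845 (26.1%) were lower and 3057 (28%) higher. The members' median log2 difference, EA20 minus EA15, was -0.26, where that of all genes was 0.038. Median levels of the members relative to each gene's mean were -0.10 and -0.074 on the Dox(+) EA20 arrays, -0.061 and -0.13 on the Dox(-) EA20 arrays, 0.17 on the Dox(+) EA15 array and 0.19 on the Dox(-) EA15 array. The 4 EA20 arrays were thus below both EA15 arrays whatever the treatment. The hybridization controls and the Ba/F3 marker sum, given above, were higher in EA20. The summed signal of 4 T cell markers, 2 of them above the dim limit, was 391 to 460 in EA20 and 144 to 164 in EA15. The defining markers Cd3e and Cd4 were dim, and Cd3g averaged 318 in EA20 against 21.4 in EA15. Cd8a, above the dim limit, went the other way, at 69.9 in EA20 and 107 in EA15, and was not called. The higher T cell sum thus came from Cd3g. All 3 macrophage markers were above the dim limit and summed to 1380 to 1551 in EA20 and 994 to 1105 in EA15. Csf1r and Adgre1 were higher in EA20, while Cd68 averaged 113 in EA20 and 195 in EA15 and was not called. The 4 B cell markers, 2 above the limit, summed to 682 to 898 in EA20 and 531 to 659 in EA15. The 3 fibroblast markers and the erythroid marker were all dim. The ratio of 3' to 5' Gapdh was 0.637 to 0.680 in EA20 and 0.684 to 0.688 in EA15. The same ratio for actin leaned the other way and overlapped, at 1.177 to 1.238 in EA20 and 1.169 to 1.183 in EA15. The part of these values in the members' difference was not tested. What distinguishes the sets is not given in the labels.

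**Figure D3:**
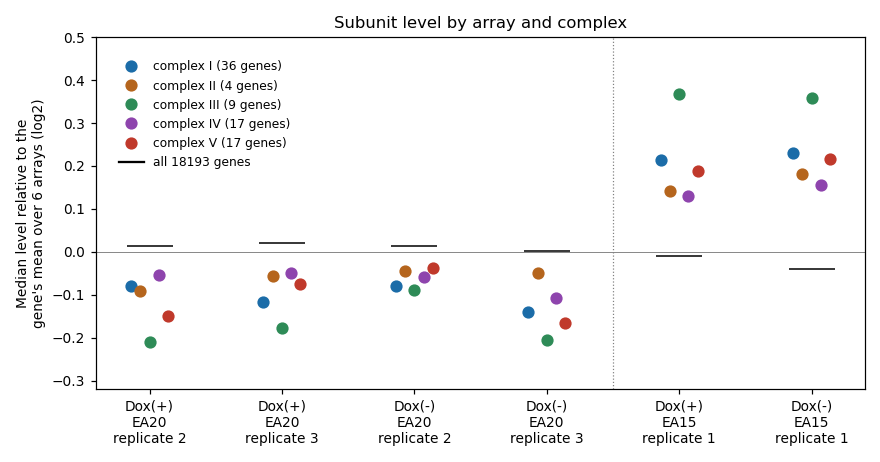
Median log2 level of the members of each complex on each array, relative to the gene's mean over 6 arrays; the dotted line separates the EA20 arrays, with Dox(+) left of Dox(-), from the EA15 arrays. Every complex is above 0 on both EA15 arrays and below 0 on all 4 EA20 arrays, while the bars for all 18193 genes stay near 0.

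Complex III had the lowest median of EA20 minus EA15, at -0.57, with 7 of 9 genes lower and 1 higher. Cyc1 averaged 2950 ± 171 in EA20 (SD, n = 4) and 8449 in EA15 (2 arrays, 8797 with and 8101 without doxycycline), a log2 difference of -1.51 (SE 0.072, adjusted p 7.9e-07). Uqcrq averaged 3463 ± 220 in EA20 (SD, n = 4) and 7184 in EA15, a log2 difference of -1.05 (adjusted p 4.28e-06). With probe sets that may cross-hybridize left out, Uqcrq was read by another probe set and stood at 0.082, so its difference depends on the probe set. That probe set was far weaker, with a mean signal of 85.9 against 4704 for the one used, so the readings are not of equal strength. Uqcr10, Uqcr11 and Uqcrc1 were also lower in EA20, at -0.74, -0.61 and -0.57. Uqcrh was higher in EA20 by 0.36 (adjusted p 0.0108), a call that was lost with median centring (0.24), without the mean-variance trend and without either EA15 array (0.31 and 0.41). Another bright Uqcrh probe set, with a mean signal of 11818 against 15471, stood at 0.75. It was called in the limma fit over all probe sets (adjusted p 2.9e-05).

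Complex I had a median of -0.33, with 20 of 36 genes lower and 3 higher. All 6 core subunits were lower, from -0.51 for Ndufv2 to -0.85 for Ndufs8. Ndufs8 averaged 3104 ± 404 in EA20 (SD, n = 4) and 5590 in EA15, and the 4 EA20 values of each core gene were below its EA15 values. Of the 28 accessory subunits 14 were lower and 3 higher. Ndufa5, a subunit of the matrix arm, averaged 2087 ± 132 in EA20 (SD, n = 4) and 4161 in EA15, a log2 difference of -0.99 (adjusted p 7.59e-06). Ndufa6, which sits on the same arm and holds the acyl carrier protein, went the other way, with 9972 ± 363 in EA20 (SD, n = 4) and 5437 in EA15, a log2 difference of 0.87 (adjusted p 5.79e-06). Ndufa1 and Ndufa7 were higher in EA20 by 0.30 and 0.25. Another Ndufa7 probe set of nearly the same mean signal (5628, against 5720) stood at -0.11 and was not called. Its remaining probe sets stood at 0.16 to 0.43.

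Complex IV and complex V had medians of -0.21 and -0.30, with 5 and 10 of 17 genes lower. The complex IV count is 5 of the 13 genes above the dim limit, where the background was 26.1%, so nothing is read from it. The muscle form Cox6a2 averaged 83.9 ± 12.7 in EA20 (SD, n = 4) and 275 in EA15, a log2 difference of -1.54 (SE 0.23, adjusted p 0.000565). Cox7a2l, known as a factor that joins complexes III and IV, averaged 9911 ± 313 in EA20 (SD, n = 4) and 6526 in EA15. Its log2 difference of 0.60 (adjusted p 7.52e-05) was the only called rise in this complex. Whether Cox7a2l has that function in these cells was not tested. Among complex V genes Atp5g1 differed by -0.80, Atp5k by -0.59 and Atp5d by -0.56, with no call upward. With possibly cross-hybridizing probe sets left out, Atp5g1 was read by a dim probe set, stood at -0.29 and was not called (adjusted p 0.640). Atp5c1, at -0.36, was at 0.28 and not called under the same setting, where its probe set was far weaker (mean signal 200, against 14501). In complex II Sdhc and Sdha were lower, at -0.32 and -0.26, while Sdhb and Sdhd, both at -0.18, were not called. Sdha stood at 0.21 and was not called with the mean of all its probe sets, which takes in dim ones (mean signals 47.5 and 14.2). Its call was also lost with quantile normalization, without the trend, without either EA15 array and without the Dox(+) array of replicate 2. The Sdhc call was lost without the trend.

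**Figure D4:**
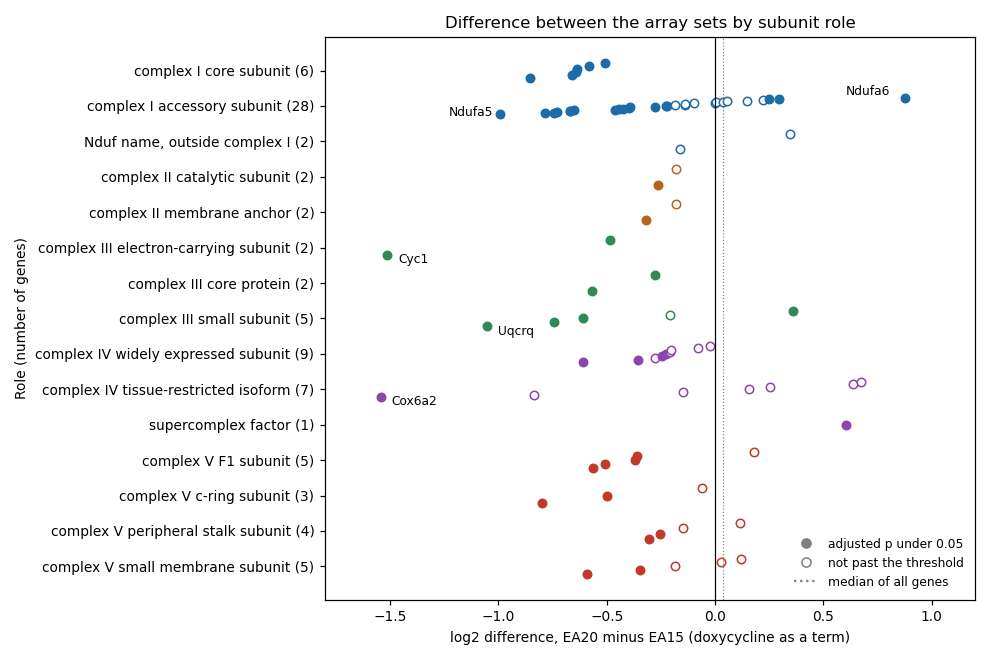
Log2 difference EA20 minus EA15 for each member, one row per subunit role with the number of genes in brackets; filled points passed an adjusted p of 0.05, open points did not, and the dotted line is the median of all genes. The 6 complex I core subunits lie together between -0.85 and -0.51, while accessory subunits run from Ndufa5 at -0.99 to Ndufa6 at 0.87.

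The neighbouring lists also had medians below 0 for EA20 minus EA15. Called in EA20 against EA15, 24 of 46 assembly factors were lower and 6 higher, as were 14 and 1 of 18 genes of the TCA cycle list. The counts were 10 and 5 of 16 carrier and coenzyme Q genes, 9 and 6 of 21 regulators, and 8 and 2 of 12 inner membrane proteins. The background among genes above the dim limit was 26.1% lower and 28% higher, so the share of regulators and of carrier and coenzyme Q genes called higher was near it. The lists' medians were -0.31, -0.49, -0.46, -0.22 and -0.48, in the order given. ND5 was lower in EA20 as well, at -0.31.

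Whether the doxycycline difference itself depended on the array set was tested with an interaction term. No member passed at an adjusted p under 0.05, nor did any gene (0%). At an unadjusted p under 0.05 there were 2 members, Ndufa5 and Ndufs1, where all genes had 1222 (6.72%). Their Dox(+) minus Dox(-) differences were 0.11 and 0.015 in EA15, and -0.16 and -0.26 in EA20. The lowest adjusted p among members was 0.721. This test assumes that the lone EA15 array of each group varies like the EA20 arrays.

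Because most members called between the sets moved one way, 4 promoters are shown: among members called between the sets and having a sequence, those of the 2 lowest and the 2 highest differences. They are RefSeq windows on GRCm38.p6, 300 bases long, from 250 bases before to 50 after the annotated start, written 5′ to 3′ on the gene's strand. Ndufa5 (chr6:24527477-24527776, minus strand; the first of 2 windows) and Ndufs8 (chr19:3912725-3913024, minus strand) were lower. Cox7a2l (chr17:83514284-83514583, minus strand) and Ndufa6 (chr15:82354242-82354541, minus strand) were higher. Capitals mark matches on either strand to TGCGCA or CGCANGCG, cores of the NRF1 site, or to CCGGAAG, the core bound by ETS factors such as GABPA; NRF1 and GABPA are known as regulators of respiratory genes.
Ndufa5: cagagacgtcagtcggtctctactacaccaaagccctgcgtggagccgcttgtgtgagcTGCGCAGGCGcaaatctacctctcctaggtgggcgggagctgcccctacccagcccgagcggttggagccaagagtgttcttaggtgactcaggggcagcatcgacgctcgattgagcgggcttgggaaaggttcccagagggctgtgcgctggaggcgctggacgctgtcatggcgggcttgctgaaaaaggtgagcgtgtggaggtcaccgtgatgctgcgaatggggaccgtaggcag
Ndufs8: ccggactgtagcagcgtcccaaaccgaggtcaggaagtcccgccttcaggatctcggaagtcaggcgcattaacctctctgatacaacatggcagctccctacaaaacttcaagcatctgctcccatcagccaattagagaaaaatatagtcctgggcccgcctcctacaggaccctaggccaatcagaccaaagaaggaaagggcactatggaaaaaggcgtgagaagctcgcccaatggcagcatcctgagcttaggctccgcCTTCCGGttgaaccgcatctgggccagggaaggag
Cox7a2l: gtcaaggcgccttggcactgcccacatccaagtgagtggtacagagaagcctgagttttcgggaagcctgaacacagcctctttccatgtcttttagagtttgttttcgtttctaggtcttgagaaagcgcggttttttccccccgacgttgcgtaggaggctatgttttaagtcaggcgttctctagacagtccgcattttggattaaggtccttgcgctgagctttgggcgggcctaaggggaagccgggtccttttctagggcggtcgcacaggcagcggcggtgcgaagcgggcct
Ndufa6: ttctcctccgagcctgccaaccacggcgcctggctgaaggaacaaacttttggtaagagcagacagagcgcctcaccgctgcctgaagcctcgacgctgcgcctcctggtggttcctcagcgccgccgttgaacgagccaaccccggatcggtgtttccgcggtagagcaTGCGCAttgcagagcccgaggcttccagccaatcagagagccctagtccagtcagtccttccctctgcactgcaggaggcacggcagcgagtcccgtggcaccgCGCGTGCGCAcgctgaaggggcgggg

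The Ndufa5 window held 1 place where TGCGCA and CGCANGCG overlap, and that of Ndufs8 held 1 ETS core, written as CTTCCGG on this strand. The Ndufa6 window, of the gene that was higher in EA20, held 2 places with TGCGCA, 1 of them overlapping a CGCANGCG match, and that of Cox7a2l held none of the 3 motifs. A match is a run of letters and not a binding site.

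Of the 83 members 67 had such a window. TGCGCA was present in 17 (25.4%), where 10.06% of 17492 protein-coding genes had it, and CGCANGCG, which can overlap it, in 22 (32.8%) against 11.35%. CCGGAAG was present in 16 (23.9%) against 11.9%, and AAGATGGC, the core of the YY1 site, in 8 (11.9%) against 3.22%. CCAAT, the box bound by NF-Y, was present in 28 (41.8%) against 39.03%. By array set, TGCGCA was in 9 of the 36 members with a window that were lower in EA20 and in 8 of the other 31, and CGCANGCG in 11 and 11. CCGGAAG was in 7 and 9 of these, AAGATGGC in 6 and 2, and CCAAT in 12 and 16.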

How the data were processed

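RNA of 6 samples of Ba/F3 cells, 3 Dox(+) and 3 Dox(-), was measured on Affymetrix Mouse Genome 430 2.0 arrays. The authors deposited signal intensities on a linear scale, computed in Affymetrix Expression Console according to the submitters' processing notes, with no algorithm or version given in the sources used here. Every array has a mean of 500 once 2% is trimmed at each end, so its scaling would hide a shift in total mRNA. The number of arrays limits the precision.

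Of 45101 probe sets 64 were controls, 34945 had 1 symbol in the platform annotation, 932 had several and 9160 were unnamed here; 10 that list a member beside other symbols were not used. Each of 18193 genes was read by its probe set of highest mean signal, and 0 symbols changed through Entrez identifiers. Signals were transformed to log2(signal + 16), which understates changes of dim genes, and all differences are on that scale. Genes were fitted with limma 3.58.1 (R 4.3.3; lmFit, then eBayes with trend), two-sided, with array set, taken from how the array codes start, as a term; Benjamini-Hochberg adjustment ran over all genes. EA20 alone was fitted as 2 against 2, and EA15 gave ratios with no test. The fits were tested on simulated data.

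The members and lists were chosen with earlier results of these data known, so no list was tested as a set. Named genes were members past the threshold, the 3 smallest p in each direction per complex, the Sdh genes, the isoform pairs, the 3 largest array-set differences in each direction and the 2 smallest p in each direction per list; further members named for their role, the genes with printed promoters and those with an interaction p under 0.05 were chosen with values seen. Alternatives were median centring, quantile normalization, other pseudocounts, a robust prior, no trend, no dim genes, averaging a gene's probe sets, leaving out probe sets that may cross-hybridize (suffixes _s_at, _x_at and _a_at), array weights, no block, EA20 alone and each array left out. Replicate numbers follow sample order and pair nothing. Promoter windows came from RefSeq on GRCm38.p6.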

Additional observations from a re-analysis of the deposited data

How the results depend on the processing

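In none of 18 alternatives was a member called between Dox(+) and Dox(-), and the lowest adjusted p among members ran from 0.139 to 1.0. The median Dox(+) minus Dox(-) difference of all members stayed between -0.028 and 0.027, and 16 of 36 named members, none of them called, changed sign under at least 1 alternative. The interaction count stayed at 0 in the 14 alternatives that allow it. The median of the mitochondrially encoded list, which is ND5 alone, was 0.13 to 0.26 over the alternatives, reaching 0.26 without 1 Dox(-) array. No paired analysis was possible because the labels give no replicate numbers that pair samples.

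Between array sets, the count of members lower in EA20 was 30 to 57. The count higher in EA20, 5 as reported, was 8 with quantile normalization, 2 with median centring, 2 without the trend, 2 with possibly cross-hybridizing probe sets left out, and 2 to 6 when each array was left out (3 without the Dox(+) EA15 array and 2 without the Dox(-) EA15 array). Median centring moved the median of all genes to -0.082, against 0.038, and that of the members to -0.38; relative to all genes the members stood at -0.30 in both. With it 2547 genes were higher in EA20 and 3576 lower. Among named members called between the sets, the sign turned for Sdha, at 0.21 when a gene's probe sets were averaged, and Uqcrq and Atp5c1, at 0.082 and 0.28 with possibly cross-hybridizing ones left out. With those left out Atp5g1 stood at -0.29 and was not called. These alternatives read other probe sets of the gene, and which reading is right was not tested. For Uqcrq and Atp5c1 the other probe sets were far weaker, at mean signals of 85.9 and 200, against 4704 and 14501 for those used above. For Atp5g1 the mean signal was 18.1, against 5318. The Sdha average took in dim probe sets at 47.5 and 14.2, while another bright one stood at 0.043. Of the named members not called between the sets, Sdhd, Atp5g2, Atp5md, Cox4i1 and Cox8c also changed sign in at least 1 alternative. Signal near background limits the 6 dim members.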

Other observations

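Several members were read by more than 1 probe set. The 83 members had 170 probe sets, 154 of them above the dim limit, and 0 of the 170 were called between Dox(+) and Dox(-) when all 45037 probe sets were tested one by one with limma. Of the 47 members with 2 or more probe sets above the dim limit, 32 had all of them on the same side between EA20 and EA15. In Atp5a1, the catalytic head subunit of ATP synthase, the probe sets were called in opposite directions. The probe set used above read 11560 to 12686 in EA20 and 16746 to 17157 in EA15, a log2 difference of -0.51 (adjusted p 0.000602). Another read 555 to 697 in EA20 and 365 to 407 in EA15, a log2 difference of 0.65 (adjusted p 0.00208). The remaining probe set differed by 0.0089 and was not called. Atp5a1 was chosen here after its values were seen.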
